A study of Homo sapiens with 18 samples.

Results

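The 9 genes ASXL1, ASXL2, ZBTB7A, RAD21, SMC3, EZH2, DHX15, NRAS and TET2 are often mutated together with the AML1-ETO fusion in t(8;21) leukaemia. They are examined here as places where the fusion itself may sit, through the peaks in the body of each gene or within 10 kb of it. The set holds 9 of 19974 protein-coding genes on chromosomes 1 to 22 and X. It was chosen by gene name, with earlier results of these data known. Binding was profiled by CUT&RUN, which sequences the DNA that an antibody-tethered nuclease cuts free around a protein. The cells were Kasumi-1, an established acute myeloid leukaemia line that carries the t(8;21) translocation. All groups were cells of this 1 line carrying Flag-tagged AML1-ETO, and were sorted as GFP-positive 3 days after transduction. They were controls or had miR-130a, a microRNA, knocked down. There were 3 libraries for each condition with anti-ETO, anti-Flag or mouse IgG, 18 in all, which the labels call replicates without naming separate cultures, and what the control cells were transduced with is not given in the sources used here.

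The authors' lists give 1 set of peaks per antibody and condition, with positions only. No height, score or value per library accompanies a peak, so the depth behind each call is unknown, no spread between libraries could be computed, and no comparison below carries a test. A peak absent from a list was not called there, which is not evidence that the protein was absent. A dual-antibody peak is one that the authors list as called by both anti-ETO and anti-Flag in a condition. Their shared, control-unique and knockdown-unique lists compare the dual-antibody peaks of the conditions. The lists differ in length, with 14264 control and 22594 knockdown anti-ETO peaks, and 23162 control and 25961 knockdown anti-Flag peaks. The knockdown lists are therefore the longer ones for both antibodies.

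As background, AML1-ETO keeps the DNA-binding Runt domain of RUNX1 and gains the corepressor-binding ETO protein, and it recognises the RUNX motif. The fusion alone is not sufficient for leukaemia in model systems, and additional mutations are found in most patients. ASXL1 and ASXL2 are chromatin scaffolds of the BAP1 deubiquitinase complex. EZH2 is a catalytic subunit of Polycomb repressive complex 2 (PRC2), TET2 oxidises methylated cytosine, and ZBTB7A is a zinc finger repressor that acts in blood lineage choice and metabolism. RAD21 and SMC3 are core subunits of the cohesin ring, NRAS is a small GTPase of growth factor signalling, and DHX15 is an RNA helicase that takes spliceosomes apart.

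The sequences upstream of the starts are shown first, since 6 of the 7 sites called in all lists had their centre within 1 kb of a start, on either side. RefSeq promoter entries (GRCh38.p14) were matched for 8 of the 9 genes, the exception being RAD21. Printed here are the 250 bases before the first annotated start of the 4 genes with dual-antibody peaks and, for contrast, of DHX15, which had no peak. They read 5′ to 3′ in the direction of the gene, and capitals mark the RUNX motif TGTGGT or its variant TGCGGT on either strand (the reverse strand of the variant reads ACCGCA).
ASXL1 (chr20:32358081-32358330, + strand): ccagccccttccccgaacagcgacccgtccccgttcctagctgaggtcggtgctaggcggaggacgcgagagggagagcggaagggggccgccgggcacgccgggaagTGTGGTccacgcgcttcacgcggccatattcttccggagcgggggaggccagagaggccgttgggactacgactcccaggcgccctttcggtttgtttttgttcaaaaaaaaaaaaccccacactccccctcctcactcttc
ASXL2 (chr2:25878488-25878737, - strand): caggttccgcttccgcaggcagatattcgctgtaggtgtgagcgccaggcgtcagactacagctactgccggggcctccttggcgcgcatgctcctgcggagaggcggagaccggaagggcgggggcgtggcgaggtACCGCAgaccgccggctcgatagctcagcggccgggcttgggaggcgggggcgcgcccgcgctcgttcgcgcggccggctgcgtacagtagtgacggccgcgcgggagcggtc
ZBTB7A (chr19:4066900-4067149, - strand): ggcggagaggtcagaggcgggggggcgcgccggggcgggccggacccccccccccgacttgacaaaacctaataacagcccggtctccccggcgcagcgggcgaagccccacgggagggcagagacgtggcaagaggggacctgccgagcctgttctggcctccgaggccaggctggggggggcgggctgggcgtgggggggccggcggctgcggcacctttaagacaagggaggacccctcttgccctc
SMC3 (chr10:110567445-110567694, + strand): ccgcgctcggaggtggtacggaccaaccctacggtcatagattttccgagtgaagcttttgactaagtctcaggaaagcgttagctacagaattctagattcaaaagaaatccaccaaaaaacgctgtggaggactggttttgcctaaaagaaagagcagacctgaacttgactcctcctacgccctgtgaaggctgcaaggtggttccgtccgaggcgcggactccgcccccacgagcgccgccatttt
DHX15 (chr4:24584555-24584804, - strand): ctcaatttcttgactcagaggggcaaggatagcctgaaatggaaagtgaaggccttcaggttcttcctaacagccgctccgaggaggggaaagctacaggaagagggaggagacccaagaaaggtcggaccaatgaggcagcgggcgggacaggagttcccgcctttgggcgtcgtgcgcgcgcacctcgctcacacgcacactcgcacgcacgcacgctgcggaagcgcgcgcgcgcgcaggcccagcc

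Among the 8 genes, the letters TGTGGT occurred once, upstream of ASXL1. This match, whose first base is at -142 from the start (chr20:32358189-32358194) lay under the control anti-ETO peak and under no peak of the other 3 lists. The variant TGCGGT occurred once, upstream of ASXL2 (chr2:25878595-25878600), under no peak of any list. Over 13792 such windows of protein-coding genes, 9.06% held TGTGGT and 6.99% held TGCGGT. In the 3511 windows under a control dual-antibody peak the shares were 9.0% and 12.6%, and in the 8737 windows under no peak they were 9.5% and 4.67%. TGCGGT, unlike TGTGGT, contains the bases CG. The median count of CG was 24 under a control dual-antibody peak and 12 under no peak, with median GC content of 67.6% and 58.8%. The part of base composition in the TGCGGT shares was not tested. The ETS core GGAAG was found in 67.7% of all windows, and among the 8 genes it occurred upstream of ASXL1 (4 matches), DHX15 (3), ASXL2 (2), EZH2 (1) and NRAS (1). CAGCTG, an E-box, was found in 13.4% of windows and in none of the 8. GC content was 74.4% for ZBTB7A, 72.4% for ASXL2, 64.0% for ASXL1 and 52.8% for SMC3, against a median of 67.6% under control dual-antibody peaks and 62.4% over all windows. EZH2, with an anti-ETO call only, had 75.6%, and DHX15 and TET2, with no peak, had 63.2% and 45.6%. Such matches describe letters in these windows and not bound sites.

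The genes fell into those with dual-antibody peaks in both conditions, those with calls by one antibody at a time, and those with no call. ASXL1, ASXL2, ZBTB7A and SMC3 had dual-antibody peaks in control and in knockdown. RAD21, EZH2 and NRAS had single-antibody peaks but no dual-antibody peak (3 of 9, background 11.3%), and DHX15 and TET2 had no peak in any list. None of the 9 had a dual-antibody peak in one condition only. In all, 7 of 9 had a peak in some single-antibody list (background 58.4%, or 62.4% at like length), and the 4 with dual-antibody peaks were called in all 4 such lists (background 37.3%). The 4 of 9 genes with a control dual-antibody peak (44.4%) compare with 43.8% of all protein-coding genes, and the 4 of 9 in knockdown with 39.4%. Among the 11264 protein-coding genes between 12303 and 144735 bp long, the length range of the 9, the shares were 46.4% and 41.3%. In this window, the share of the set with a dual-antibody peak was thus near that of genes in general. Over the narrower promoter windows, described below, it was 4 of 8 in each condition, with backgrounds of 30.0% and 26.5%. So few genes cannot separate a share from the background.

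**Figure D1:**
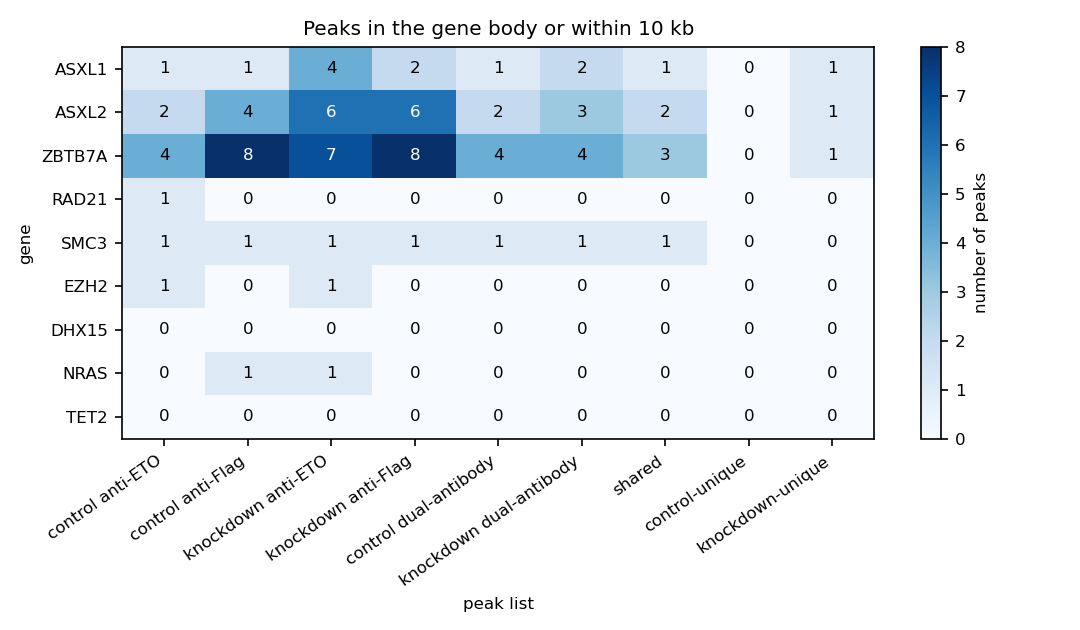
Number of peaks (colour and digit) in the body of each gene (rows) or within 10 kb, for each of the 9 deposited lists (columns). ZBTB7A and ASXL2 hold most of the peaks, with up to 8 and 6 in a list, and DHX15 and TET2 hold 0 throughout.

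By antibody, anti-ETO peaks were found at 6 of 9 genes in control (66.7%, background 47.6%) and at 6 in knockdown (66.7%, background 53.8%). Among genes of like length these backgrounds were 50.8% and 57.9%. Anti-Flag peaks were found at 5 genes in control (55.6%, background 50.2%) and at 4 in knockdown (44.4%, background 42.2%), with 53.0% and 44.2% among genes of like length. The number of anti-ETO peaks over the set was 10 in control and 20 in knockdown, and that of anti-Flag peaks was 15 and 17. With the knockdown anti-ETO list shortened to the control length by keeping its widest peaks, the set held 10 knockdown anti-ETO peaks, the same number as in control. This cut drops narrow knockdown peaks while control keeps its narrow ones, so it cannot tell what the excess in the full list reflects. Over all protein-coding genes, the mean number of anti-ETO peaks per gene was 1.04 in control and 1.62 in knockdown. For anti-Flag it was 1.63 and 1.83.

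**Figure D2:**
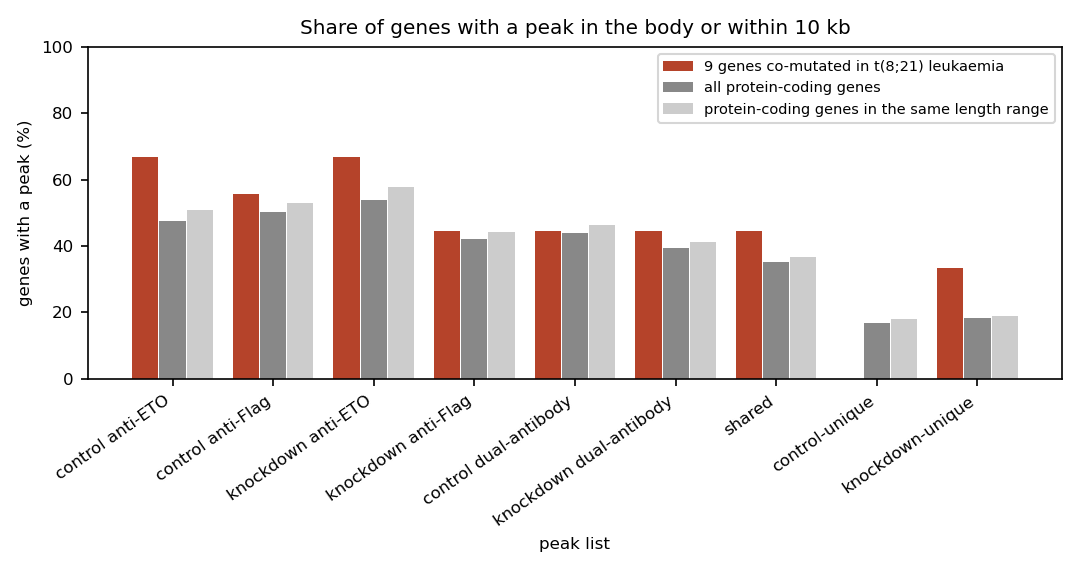
Percentage of genes (vertical axis) with a peak in the body or within 10 kb for each list (horizontal axis), for the 9 genes, for all 19974 protein-coding genes and for the 11264 in the same length range. The 9 genes sit at 44.4% for both dual-antibody lists, beside 43.8% and 39.4% of all genes, and at 0% for the control-unique list.

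Of the dual-antibody peaks, 8 lay at the set in control and 10 in knockdown. The authors' shared list held 7 peaks at 4 genes (44.4%, background 35.1%, or 36.7% at like length), the knockdown-unique list 3 peaks at 3 genes (33.3%, background 18.4%, or 18.9% at like length) and the control-unique list 0 (background 16.9%, or 18.0% at like length). The 3 knockdown-unique peaks lay at ASXL1, ASXL2 and ZBTB7A, 1 at each. A knockdown-unique without a control-unique peak was found for 14.0% of all protein-coding genes. Shares over 9 genes are coarse and describe only the genes named.

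ASXL1 (chromosome 20, 32358331 to 32439319, plus strand) had calls around its start that lay differently in the conditions. In control, anti-ETO called 1 peak of 748 bp over the start (32357754 to 32358501) and anti-Flag called 1 peak of 170 bp inside it (32358305 to 32358474). That width is the smallest in the whole control anti-Flag list. In knockdown, anti-ETO called a peak of 726 bp upstream (32357364 to 32358089) and a separate one of 234 bp over the start (32358266 to 32358499). Knockdown anti-Flag called only the upstream part, with a peak of 545 bp (32357539 to 32358083). The authors' shared list joins these calls into 1 interval of 1138 bp, although the anti-Flag peaks of control and knockdown did not touch and lay 221 bp apart. Such a lack of overlap between the anti-Flag calls of the conditions was found in 50 of 8731 shared peaks (0.573%), and in 3 (0.0344%) for anti-ETO. The anti-ETO calls of the conditions at ASXL1 had 570 bp in common.

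ASXL1 also had a knockdown-unique peak of 859 bp (32359046 to 32359904) over another annotated start, 734 bp downstream of the first. It was called by knockdown anti-ETO at that full width and by knockdown anti-Flag at 327 bp, and by neither antibody in control. Over all 4617 knockdown-unique peaks, 38.1% had no control call by either antibody. Another ASXL1 site, of 327 bp, deep in the gene body, was called by knockdown anti-ETO alone. The window of ASXL1 also reaches NOL4L, but each of its 3 sites lay nearest to ASXL1.

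ASXL2 (chromosome 2, 25733753 to 25878487, minus strand) carried a pair of peaks on either side of its start in every list. The inner one covered 879 bp in control anti-ETO, 1129 bp in control anti-Flag, 1139 bp in knockdown anti-ETO and 1239 bp in knockdown anti-Flag. The outer one covered 650, 747, 809 and 957 bp in the same order. Both peaks were wider in knockdown than in control for each antibody, and both are in the authors' shared list (25877144 to 25878447 and 25878657 to 25879647). The start itself lay in the gap between them, which measured 210 bp in control anti-ETO, 247 bp in control anti-Flag, 222 bp in knockdown anti-ETO and 308 bp in knockdown anti-Flag. The TGCGGT match printed above lay within this gap.

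Inside ASXL2, about 25 kb from the start, a second group of calls was made. The knockdown-unique peak there (25853310 to 25853688, 379 bp) was called by knockdown anti-ETO at 374 bp and by knockdown anti-Flag at 321 bp, with no control call. A neighbouring site of 857 bp (25851834 to 25852690) was called by control anti-Flag at 855 bp, by knockdown anti-ETO at 503 bp and by knockdown anti-Flag at 178 bp. It is in neither dual-antibody list, although both antibodies called it in knockdown. The other 5 of the 9 ASXL2 sites were called in 1 list each, 4 of them in a knockdown list, and were 181 to 344 bp wide. No other protein-coding gene lies within 10 kb of ASXL2.

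ZBTB7A (chromosome 19, 4043303 to 4066899, minus strand) was the most densely called gene, with 11 merged sites in a window of 43597 bp. Control anti-ETO called 4 peaks, control anti-Flag 8, knockdown anti-ETO 7 and knockdown anti-Flag 8. It had 4 dual-antibody peaks in each condition, and 5.67% of protein-coding genes had at least as many in control and 8.97% in knockdown. Among the wider 50% of each list it had 1 in control and 3 in knockdown, in the gene body alone 3 and 4, and within 50 kb 8 and 8. The widest site, of 2646 bp (4066228 to 4068873), covered the first start and was shared. Knockdown anti-ETO called it as 1 peak of 2630 bp, wider than 98.3% of that list, while the other 3 lists each split it into a peak over the start of 1495 to 1544 bp and a smaller one upstream. The main peak had nearly the same width in those 3 lists, with 1536 bp in control anti-ETO, 1495 bp in control anti-Flag and 1544 bp in knockdown anti-Flag.

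Next to it, upstream of a start 1370 bp inside the gene, lay a site of 251 bp (4065659 to 4065909) that all lists called with almost the same edges. Its width was 250 bp in both control lists, 251 bp in knockdown anti-ETO and 237 bp in knockdown anti-Flag. The starts varied by 1 bp and the ends by 13 bp, whereas the median variation was 175 and 181 bp over the 5555 sites with 1 peak in each list. Edges as close as these, a comparison chosen after the values were seen, were found at 5 of the 5555 sites (0.09%). A shared site of 1602 bp far inside the gene (4051773 to 4053374) spread most between lists. Its peaks covered 326 bp in control anti-ETO, 777 bp in control anti-Flag, 1602 bp in knockdown anti-ETO and 416 bp in knockdown anti-Flag.

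The knockdown-unique peak of ZBTB7A (4064040 to 4065182, 1143 bp) was already called by control anti-Flag at 679 bp. Knockdown anti-Flag called it at 725 bp and knockdown anti-ETO at 1099 bp, and only control anti-ETO lacked a call. Those of ASXL1 and ASXL2 had no control call by either antibody. Farther upstream, beyond the site over the first start, anti-Flag called 2 sites in control and 3 in knockdown, which did not overlap. Inside the gene, knockdown anti-ETO alone called sites of 177 bp (4058658 to 4058834) and 236 bp (4059027 to 4059262). Knockdown anti-ETO overlapped the farthest of the control anti-Flag sites with a peak of 307 bp. The sites lay nearest to ZBTB7A, although the window also reaches PIAS4.

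**Figure D3:**
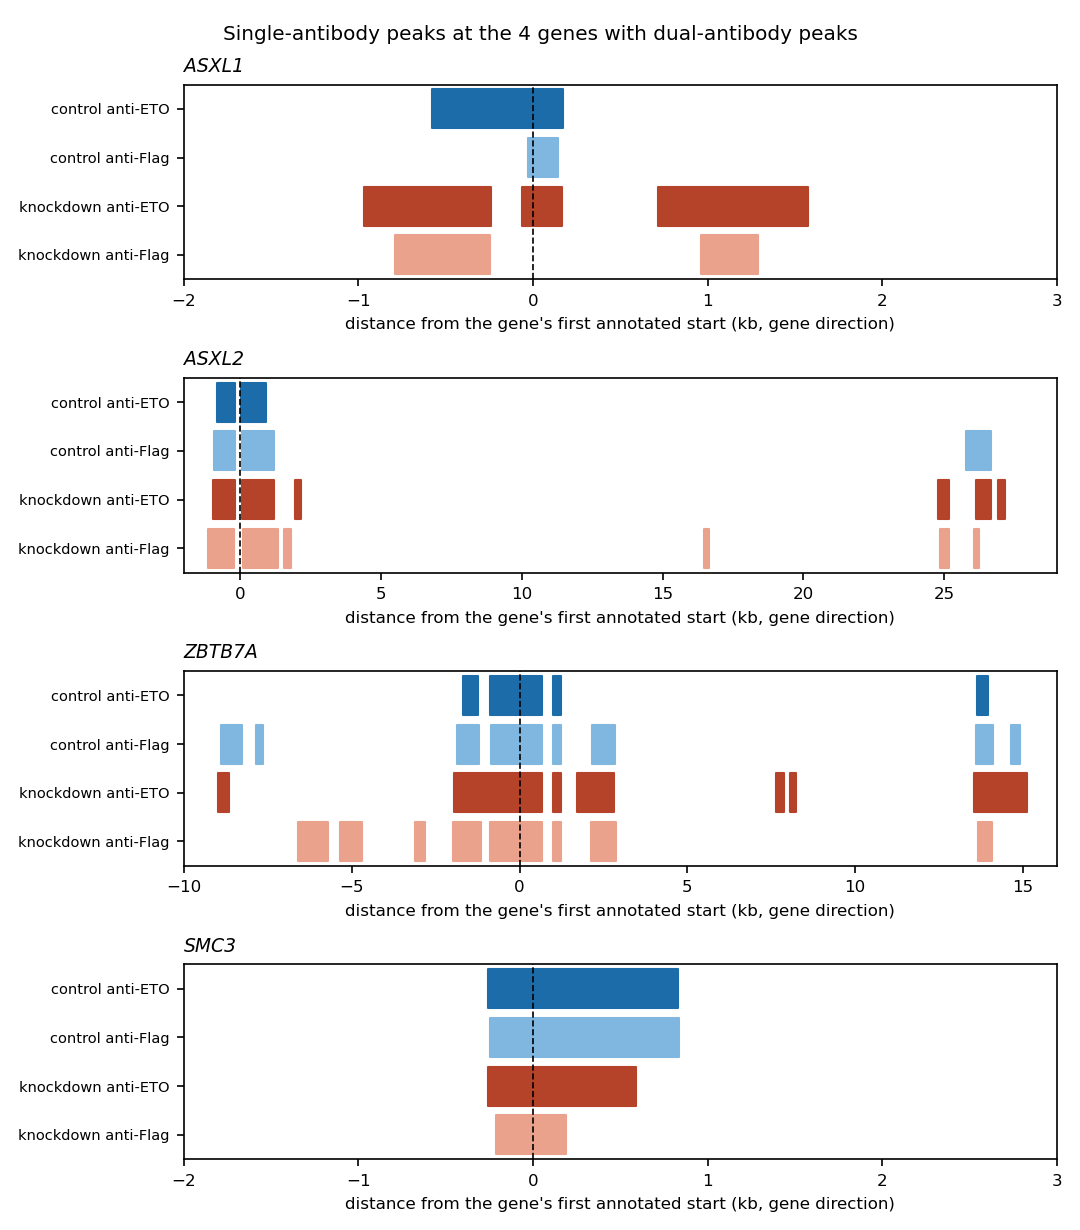
Single-antibody peaks (bars, to scale) at ASXL1, ASXL2, ZBTB7A and SMC3 by list, against distance from the first annotated start in kb, positive into the gene (dashed line, start). The control and knockdown anti-Flag bars of ASXL1 do not overlap near the start, the start of ASXL2 lies in a gap in all 4 lists, and the innermost site of ASXL1 and of ASXL2 falls outside the plotted range.

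The cohesin genes differed from each other. SMC3 (chromosome 10, 110567695 to 110606048, plus strand) had 1 site, over its start, called in all 4 lists and listed as shared at 1091 bp (110567440 to 110568530). The peak measured 1084 bp in control anti-ETO, 1080 bp in control anti-Flag, 845 bp in knockdown anti-ETO and 403 bp in knockdown anti-Flag. It was narrower in knockdown for both antibodies, the opposite of the pair at ASXL2, and its upstream edge, at -255, -244, -255 and -213 bp from the start in the same order, moved less than its inner edge, at 828, 835, 589 and 189 bp. RAD21 (chromosome 8, 116845934 to 116874776) had 1 peak in control anti-ETO, of 178 bp, ending 29 bp inside the gene's boundary at the higher coordinate, and none in the other lists. Only 1.11% of control anti-ETO peaks were narrower. The nearest peak to RAD21 was 79.1 kb away in control anti-Flag and in knockdown anti-ETO, and 6170 kb away in knockdown anti-Flag.

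At EZH2 (chromosome 7, 148807383 to 148884291, minus strand), anti-ETO called the same upstream site in both conditions and anti-Flag called none. The peak was 196 bp wide in control (148884463 to 148884658) and 535 bp in knockdown (148884440 to 148884974). The nearest anti-Flag peak lay 57.3 kb from the gene in control and 102.0 kb in knockdown. CUL1 lies within the window, and the site was nearest to EZH2.

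NRAS (chromosome 1, 114704469 to 114716771, minus strand) had 1 call by each antibody, in different conditions and at different positions. Control anti-Flag called a peak of 309 bp (114716945 to 114717253) and knockdown anti-ETO a peak of 196 bp just inside the gene (114716539 to 114716734). They lay 210 bp apart on either side of the start. The control anti-Flag peak lay upstream, outside the NRAS gene body. No anti-ETO peak in control and no anti-Flag peak in knockdown lay closer to NRAS than 38.8 kb.

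**Figure D4:**
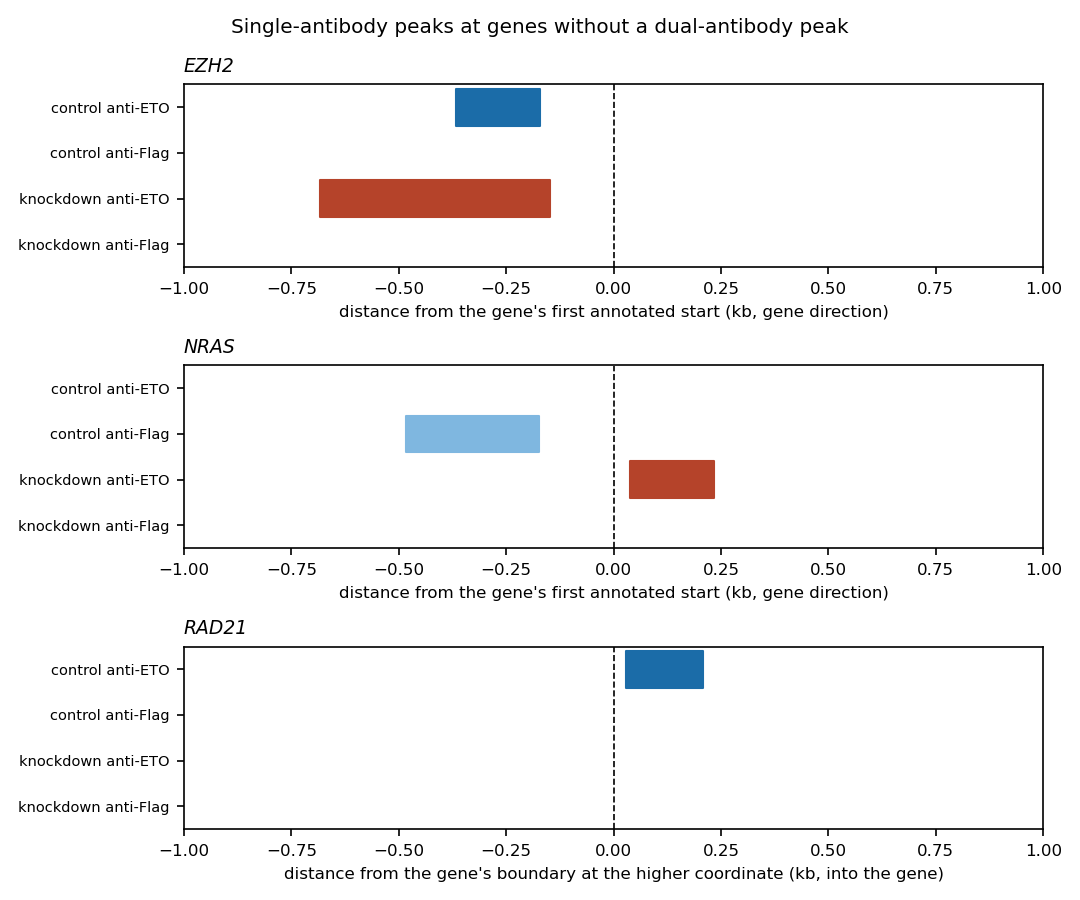
Single-antibody peaks (bars, to scale) at EZH2, NRAS and RAD21 by list, against distance from the first annotated start in kb or, for RAD21, from the gene boundary at its higher coordinate. No gene shows calls by both antibodies in the same condition.

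The other 2 genes were far from any call. The nearest peak to TET2 (chromosome 4, 105145875 to 105279803, plus strand) lay 193 kb away, in control anti-Flag, and the nearest in knockdown anti-Flag 2320 kb away. At least as great a distance to the nearest peak of any list was found for 15.3% of protein-coding genes. For DHX15 (chromosome 4, 24527475 to 24584554, minus strand) the nearest peak lay 575 kb away in each of the 4 lists, a distance reached by 5.81% of protein-coding genes. IgG libraries, copy number and read coverage of these regions were not analysed here, so a missing call cannot be told apart from low coverage.

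Merging the 4 single-antibody lists gave 28 sites at the set, of 35622 in the genome. Of these, 7 (25%) were called in all 4 lists, against 24.8% of all merged sites, and 15 (53.6%) in 1 list, against 44.3%. Another 4 (14.3%, background 16.2%) were called in 2 lists and 2 (7.14%, background 14.8%) in 3. Sites called in all 4 lists were 251 to 2646 bp wide with a median of 1138 bp, and those called in 1 list were 177 to 891 bp wide with a median of 236 bp. The corresponding medians over the genome were 1056 and 280 bp. The centre lay within 1 kb of an annotated start for 11 of the 27 sites with starts on file (40.7%, background 29.9%), for 6 of the 7 sites in all lists (85.7%, background 51.7%) and for 2 of 14 in 1 list with starts on file (14.3%, background 16.4%). A site merged from 4 lists is wider than a single call by construction, and the widths and the share of single calls near starts were close to those over the genome. Of the 15 sites in 1 list, 6 came from knockdown anti-ETO, 5 from knockdown anti-Flag, 3 from control anti-Flag and 1 from control anti-ETO. A peak over an annotated promoter window, from 250 bases before to 50 after a start, was called for 5 of 8 genes in control anti-ETO (background 32.6%) and 5 in control anti-Flag (background 32.3%). The numbers were 6 in knockdown anti-ETO (background 38.7%), 4 in knockdown anti-Flag (background 23.8%), and 4 in the control and 4 in the knockdown dual-antibody list (backgrounds 30.0% and 26.5%).

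The other genes of the same pathways were taken from 7 lists of 73 genes in all, also chosen with earlier results of these data known. Of these, 42 (57.5%) had dual-antibody peaks in both conditions, against 36.2% of all protein-coding genes. A further 4 had one in control only (background 7.66%) and 3 in knockdown only (background 3.26%), and 24 had none (background 52.9%). A knockdown-unique peak was found at 23 of the 73 genes (background 18.4%) and a control-unique peak at 18 (background 16.9%). A unique peak can still overlap calls by 1 or both antibodies in the other condition. Each of the 7 lists held at least 1 gene with dual-antibody peaks in both conditions. These lists were not matched to the background for gene length, whose part in the difference was not tested.

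In the cohesin list, 8 of 14 genes had dual-antibody peaks in both conditions: STAG1, STAG2, NIPBL, WAPL, ESCO1, ESCO2, CDCA5 and CTCF. STAG2, the cohesin subunit often mutated in myeloid leukaemia, had 2 in each condition, while SMC1A, STAG3, PDS5A and HDAC8 had no peak in any list. CDCA5, which encodes sororin, had 2 in control and 6 in knockdown, with 4 knockdown-unique peaks. NIPBL, the cohesin loader, had 1 control-unique peak and ESCO2 had 2. Knockdown anti-ETO kept calls at the NIPBL peak and at 1 of those of ESCO2. Control anti-Flag already called some of the CDCA5 knockdown-unique peaks. Members of the ring were thus unlike each other in the lists, with SMC3 and STAG2 called by both antibodies, RAD21 by anti-ETO in control alone and SMC1A by neither.

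In the PRC2 list, EZH1, EED, SUZ12, JARID2, PHF1 and PHF19 (6 of 10) had dual-antibody peaks in both conditions. RBBP4 had 1 in control only, and knockdown anti-ETO kept a call at that peak. SUZ12 had 1 control-unique and 1 knockdown-unique peak, and JARID2 and PHF19 had 2 knockdown-unique peaks each. Knockdown anti-ETO kept a call at the SUZ12 control-unique peak, and the SUZ12 knockdown-unique peak overlapped no control call. Control anti-Flag already called the knockdown-unique peaks of JARID2 and PHF19. EZH2 itself, a catalytic subunit, thus had no dual-antibody peak while its relative EZH1 and its core partners EED and SUZ12 did. Of the ASXL and BAP1 list, 6 of 9 genes did so in both conditions: BAP1, FOXK2, HCFC1, OGT, KDM1B and MBD6. BAP1, the deubiquitinase that ASXL proteins bind, had 1 dual-antibody peak in control and 2 in knockdown, with 1 knockdown-unique. HCFC1 had 1 knockdown-unique peak, and FOXK2 had 5 beside 1 control-unique peak. Control anti-Flag already called all these knockdown-unique peaks and that of BAP1. Knockdown anti-ETO kept a call at the FOXK2 control-unique peak. ASXL3 had no peak in any list.

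In the DNA methylation list, TET3, DNMT3A, DNMT3B, IDH2, WT1 and TDG (6 of 9) had dual-antibody peaks in both conditions, and TET1, like TET2, had no peak. TET3 had 4 in each condition, with 1 control-unique and 1 knockdown-unique. IDH1 had 1 in control only, where knockdown anti-ETO kept a call. DNMT3A and TDG had 1 control-unique peak each, and DNMT3B had 1 knockdown-unique peak. Control anti-Flag already called the knockdown-unique peaks of TET3 and DNMT3B. Knockdown anti-ETO kept a call at the TDG control-unique peak, while those of TET3 and DNMT3A overlapped no knockdown call. Among the ZBTB7 relatives, ZBTB7B had 6 dual-antibody peaks in each condition, with 2 control-unique and 2 knockdown-unique. Each control-unique peak of ZBTB7B overlapped a knockdown call of 1 antibody, and 1 of its knockdown-unique peaks overlapped a control anti-Flag call. ZBTB7C had 1 dual-antibody peak in control only, and knockdown anti-ETO kept a call there.

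In the RAS list, 10 of 19 genes had dual-antibody peaks in both conditions, among them HRAS (2 in control and 3 in knockdown). NRAS, the RAS gene of the set, had none in its window, and HRAS had 1 knockdown-unique peak. SOS1 had 1 in control only, while PTPN11 (1 peak) and MAPK3 (2 peaks) had them in knockdown only. Knockdown anti-ETO kept a call at the SOS1 peak. Control anti-Flag already called the PTPN11 peak and 1 of the 2 MAPK3 peaks. GRB2, an adaptor of receptor tyrosine kinases, had 7 in control and 15 in knockdown, with 9 knockdown-unique peaks and 1 control-unique. MAP2K2 had 1 of each kind, MAP2K1 had 1 control-unique peak, and ARAF, RASA1 and KIT had 1 knockdown-unique peak each. Control anti-Flag already called the knockdown-unique peaks of MAP2K2 and RASA1 and some of GRB2, and control anti-ETO that of KIT. Those of HRAS and ARAF overlapped no control call. The control-unique peaks of MAP2K1 and MAP2K2 kept a knockdown anti-ETO call, and that of GRB2 a knockdown anti-Flag call. NF1 had no peak in any list. In the splicing list, DHX16, PRPF8, SNRNP200, SRSF2 and TFIP11 (5 of 10) had dual-antibody peaks in both conditions and DHX8 in knockdown only, with 2. Knockdown-unique peaks numbered 6 at SRSF2, 5 at DHX16, 2 at DHX8, 2 at PRPF8 and 1 at TFIP11, and PRPF8 and TFIP11 had 1 control-unique peak each. Of the knockdown-unique peaks, 1 at SRSF2 (76731209 to 76732157) overlapped control calls of both antibodies. Some others at SRSF2, DHX16, DHX8 and PRPF8 overlapped a control anti-Flag call, and that of TFIP11 overlapped no control call. Knockdown anti-ETO kept a call at the control-unique peaks of PRPF8 and TFIP11. DHX38 and ZRSR2, like DHX15, had no peak in any list.

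**Figure D5:**
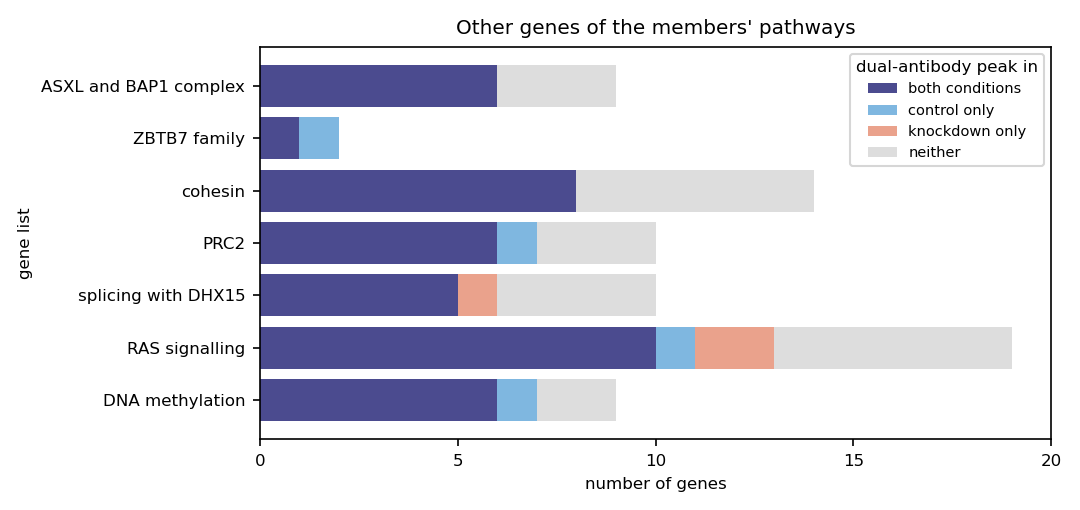
Number of genes (horizontal axis) in each of the 7 pathway lists (vertical axis), without the 9 genes of the set, by whether a dual-antibody peak lay in the body or within 10 kb in both conditions, in control only, in knockdown only or in neither. Genes with peaks in both conditions number 10 of 19 in the RAS list and 8 of 14 in the cohesin list, and over the 73 genes 4 have them in control only and 3 in knockdown only.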

How the data were processed

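The deposited files are 9 interval lists with chromosome, start and end only, and no header. Per the file names, 4 are the authors' calls for a single antibody and condition, 2 combine both antibodies, and 3 sort those into shared peaks and peaks unique to either condition. Per the submitters' processing notes, fastp 0.19.5, Bowtie2 2.3.5, MACS2 2.2.5 and HOMER 4.8 and the builds hg38 and sacCer3 were used. The thresholds, the use of IgG and the handling of replicates are not given in the sources used here. A more permissive threshold or deeper libraries would lengthen a list.

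Groups came from the sample titles, and the lists name no replicate. The depth behind a peak is unknown. Gene bodies and starts came from RefSeq (GRCh38.p14), whose build matches hg38; exons and introns were not used. Starts are counted from 1. A peak counted for a gene if at least 1 bp lay in the body or within 10 kb, so a peak can count for several neighbouring genes. Counting was done in Python 3.11.15 with numpy 2.4.6 and pandas 2.3.3, tested on simulated intervals, and checked against bedtools 2.31.1, which gave the same counts for all 9 lists. Motifs were searched in the 250 bases before the first annotated start.

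No test over libraries was possible, so counts are set beside the share of all protein-coding genes. The 9 genes and the pathway lists were chosen with earlier results of these data known. All 9 genes are named and their merged sites described, and of the pathway genes those with dual-antibody peaks in one condition or with unique peaks; others are named as examples, and some genes are not reported here. Alternatives were other flanks, overlap rules, list lengths and assignment to the nearest gene.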

Additional observations from a re-analysis of the deposited data

How the results depend on the processing

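The number of genes of the set with a dual-antibody peak was 4 in control and 4 in knockdown under each alternative run but 1, the flank of 50 kb, which gave 5 in each because NRAS entered with 1 control and 3 knockdown peaks. Of 69 recomputed totals, 56 stayed within 1.5 times the reported one. With a flank of 50 kb, the set held 20 control anti-ETO, 33 control anti-Flag, 36 knockdown anti-ETO and 34 knockdown anti-Flag peaks, and 16 shared, 1 control-unique and 6 knockdown-unique peaks. With the gene body only, knockdown anti-Flag peaks numbered 11. Keeping the wider 50% of each list left 5 control anti-ETO, 9 control anti-Flag, 10 knockdown anti-ETO and 10 knockdown anti-Flag peaks, and none at RAD21 or NRAS. Keeping only as many of the widest knockdown peaks as control had, knockdown anti-ETO peaks numbered 10. This last setting was not applied to the shared and unique lists. These changes follow from more or fewer peaks counted. No paired analysis was possible because the lists carry no replicate numbers and no test was run, and leaving out a replicate could not be done for the same reason. Width stood in for a score, which the lists lack, and 9 genes are too few for a share to separate from the background.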
